A study of Sus scrofa with 21 samples.

Results

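Cathepsins are the proteases of the lysosome, and the 9 genes described here are CTSA, CTSB, CTSC, CTSD, CTSH, CTSK, CTSL, CTSS and CTSZ, measured as mRNA in the hearts of newborn to 28-day-old pigs. The genes were selected as a family on measured levels, since cathepsins lay higher in infarcted than in naive hearts on day 28, though not every gene did. Every value of that comparison below is therefore a description and carries no test. A row of the count table was found by gene name for 8 of the 9, out of 25880 genes in all, and these 8 passed the filter on low counts that left 15359 genes for testing. The expression of CTSK was not analysed here.

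The series holds 21 libraries of total RNA, each from a different pig. Infarcted (MI) hearts had their left descending coronary artery tied off for good on postnatal day 1, and tissue from the border of the ischaemic area was collected on day 7 (n = 3), day 14 (n = 3) and day 28 (n = 2). The naive hearts, never ligated, gave the corresponding region on day 1 (n = 2), day 3 (n = 2), day 7 (n = 3), day 14 (n = 3) and day 28 (n = 3). Titles call these pigs naive, the treatment protocol describes the full operation without ligation, and which of the accounts applies is not settled by the labels. All pigs were fed by hand on colostrum and milk and kept in an incubator. The labels name no strain, sex, litter or library batch. All libraries carried heart muscle mRNA, with 38300 to 99700 CPM (counts scaled to the same total in every library) summed over 8 cardiomyocyte markers, of which TNNI3 was at 0 in every library.

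Cathepsins are made as inactive precursors, carried to the lysosome largely by mannose 6-phosphate receptors, and activated there at acidic pH. Most are cysteine proteases of the papain family (B, C, F, H, K, L, O, S, V, W and Z), cathepsin D is an aspartic protease and cathepsin A a serine carboxypeptidase. They degrade proteins delivered by endocytosis and autophagy in nearly every cell, and macrophages and other antigen-presenting cells make large amounts of several of them. In the infarcted heart, macrophages take up dead muscle, and secreted cathepsins can cleave matrix proteins.

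The genes lie on 7 chromosomes of the Sscrofa11.1 assembly in the RefSeq annotation, to which the rows were matched by symbol. CTSA is at chr17:48082480-48089971 and CTSZ at chr17:59141497-59149377. CTSB is at chr14:15014139-15035081, CTSC at chr9:21726628-21761796, CTSD at chr2:1188548-1197642 and CTSH at chr7:48084882-48106072. CTSL is at chr10:27668523-27674705. CTSK, at chr4:98389459-98404969, is next to CTSS, at chr4:98415273-98442952 on the same strand.

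CTSL has a close copy in CTSV, a cathepsin outside the list. Over the RefSeq coding sequence the pair was identical at 857 of 997 aligned bases (86%), and the longest run shared by their transcripts was 46 bases. CTSL was identical to CTSS at 61.9%, to CTSH at 58.9% and to CTSB at 56.3% of aligned coding bases. RefSeq lists CTSL as a synonym of the gene it names CTSV, at chr10:25202360-25208058. The row named CTSL in the count table held 10 to 933 counts per library and the row named CTSV 3194 to 16841, so reads of CTSV could have been counted as CTSL or dropped, and values of the CTSL row are uncertain for that reason.

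Levels between genes were compared as mean CPM per kilobase of merged RefSeq exons. In MI day 28 hearts CTSB led with 184 CPM per kilobase, followed by CTSD with 152, CTSH with 120, CTSC with 94.3, CTSZ with 91, CTSS with 29.1, CTSA with 28.7 and CTSL with 6.82. The order in naive day 28 hearts was CTSD with 149 CPM per kilobase, CTSB with 98.2, CTSC with 92.8, CTSZ with 58.2, CTSA with 28.1, CTSH with 18, CTSS with 7.13 and CTSL with 0.384. CTSV, outside the list, reached 114 CPM per kilobase in MI and 49.8 in naive day 28 hearts. Over the 21 libraries the members fell into a flat and a variable set. The highest library exceeded the lowest by 2.19-fold for CTSA, 2.42-fold for CTSC, 2.84-fold for CTSD, 3.1-fold for CTSB and 3.37-fold for CTSZ. The same ratio was 15.1 for CTSH, 15.5 for CTSS and 93.3 for CTSL. Within groups, the pooled SD of log2 CPM was 0.28 to 0.48 in the flat set, 0.75 for CTSH, 0.86 for CTSS and 1.04 for CTSL. Neighbours in the order of levels such as CTSB and CTSC in naive day 28 hearts, or CTSS and CTSA in MI day 28 hearts, therefore lay closer than their spread. The MI day 28 means of CTSB (344 and 727 CPM) and CTSH (59.3 and 282 CPM) joined unlike libraries. The lead of CTSB and the place of CTSH in that order depend on replicate 2. MI day 28 replicate 2 was the highest library for CTSB, CTSH, CTSL, CTSS and CTSZ, and naive day 28 replicate 3 the lowest for CTSH, CTSL and CTSS.

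**Figure D1:**
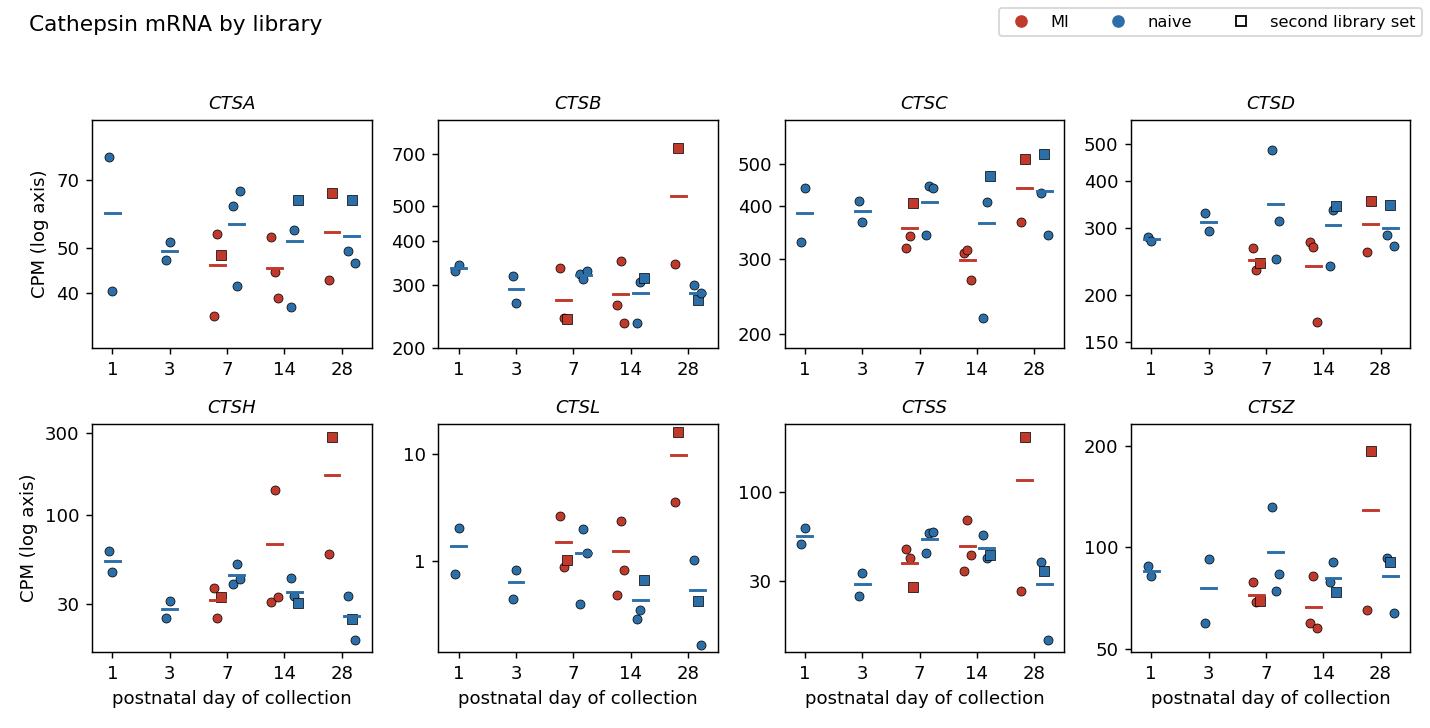
CPM of the 8 measured cathepsins (log axis, a different range in each panel) against postnatal day of collection, with 1 point per library, MI left of naive on the same day and a bar at each group mean. Squares mark the 4 libraries of a second set described in the text. MI day 28 replicate 2 stands at the top for CTSB (727 CPM), CTSH (282), CTSL (15.8), CTSS (210) and CTSZ (194), while CTSA, CTSC and CTSD show no such point.

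Facts of the libraries bear on these values. Total counts ranged from 37002909 to 95559841. A second set of 4 libraries (replicate 2 of MI day 28, replicate 3 of MI day 7, and from naive hearts replicate 3 of day 14 with replicate 2 of day 28) had under 100 CPM of ENSSSCG00000035520, which was abundant in the other 17, and the labels give no batch that would name it. Neither MI day 28 library therefore has a partner of its own set within the group. Day 28 differences of the members are given below with all libraries, without each MI library and without the second set.

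CTSH, CTSL and CTSS made up the variable set. Cathepsin H (ENSSSCG00000001770) is mainly an aminopeptidase. CTSH had 59.3 and 282 CPM in the MI day 28 libraries, against 33.8, 24.6 and 18.6 CPM in naive day 28 hearts. Both MI libraries lay above all naive ones, the second of them far above. The fitted log2 difference was 2.73 (SE 0.58, 6.64-fold). It was 1.23 without MI replicate 2, 3.48 without MI replicate 1 and 1.19 without the second library set.

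CTSH was also uneven at earlier ages. MI day 14 hearts had 31.2, 139 and 33.2 CPM, against 42.7, 33.8 and 30.6 CPM in naive day 14 hearts. A single MI library, replicate 2, was high and the other 2 lay within the naive range. MI day 7 hearts had 37.3, 25.1 and 33.3 CPM, against 39.4, 51.8 and 42.4 CPM in naive day 7 hearts, and here every MI library lay below every naive one. Naive hearts had 61.4 and 46.4 CPM on day 1 and 25.1 and 31.6 CPM on day 3. From high to low group mean, CTSH ran through MI day 28 (171 CPM), MI day 14 (67.8), naive day 1 (53.9), naive day 7 (44.5), naive day 14 (35.7), MI day 7 (31.9), naive day 3 (28.4) and naive day 28 (25.7), and each group overlapped its neighbours in that order.

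Cathepsin L (ENSSSCG00000010948) is an endopeptidase of the lysosome. CTSL had 3.54 and 15.8 CPM (228 and 933 counts) in the MI day 28 libraries, against 1.03, 0.429 and 0.169 CPM (82, 18 and 10 counts) in naive day 28 hearts. Both MI libraries exceeded all naive ones, from a low base. The fitted log2 difference of 4.13 (SE 0.9, 17.5-fold) was the largest of the members, and it was 2.71 without MI replicate 2, 4.86 without MI replicate 1 and 2.56 without the second set. At earlier ages CTSL stayed between 0.294 and 2.63 CPM. MI day 14 hearts had 0.493, 2.39 and 0.834 CPM, against 0.294, 0.354 and 0.675 CPM in naive day 14 hearts. MI day 7 hearts had 2.63, 0.886 and 1.03 CPM, against 0.406, 2 and 1.2 CPM in naive day 7 hearts, so the groups overlapped on both days. The MI day 28 mean of 9.67 CPM was followed by 1.51 CPM in MI day 7 and 1.4 CPM in naive day 1 hearts, and the means of the other 5 groups lay between 0.441 and 1.24 CPM. MI day 28 was the only group that did not overlap its neighbour in that order.

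Cathepsin S (ENSSSCG00000006648) trims the invariant chain CD74 in antigen-presenting cells and stays active at neutral pH. CTSS had 26.2 and 210 CPM in the MI day 28 libraries, against 39, 34.3 and 13.5 CPM in naive day 28 hearts. MI replicate 1 lay inside the naive range and MI replicate 2 far above it, so the groups overlapped. The log2 difference of 2.03 (SE 0.57, 4.09-fold) turned to -0.11 without MI replicate 2, was 2.89 without MI replicate 1 and was 0.01 without the second set. MI hearts had 46.4, 41.3 and 27.6 CPM on day 7 and 34.4, 68.6 and 42.6 CPM on day 14, against 43.9, 57.9 and 58 CPM in naive hearts on day 7 and 56, 41.2 and 43 CPM on day 14. The groups overlapped on both days, with the highest value again in MI day 14 replicate 2. Naive hearts had 49.9 and 61.2 CPM on day 1 and 24.5 and 33.6 CPM on day 3, the same order as for CTSH. After MI day 28, with a mean of 118 CPM, the other group means of CTSS ran from 55.6 CPM in naive day 1 to 28.9 CPM in naive day 28 hearts, and each group overlapped its neighbours.

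CTSB and CTSZ moved less, and in the same library. Cathepsin B (ENSSSCG00000023666) is an abundant endopeptidase and dipeptidyl carboxypeptidase. CTSB had 344 and 727 CPM in the MI day 28 libraries, against 301, 273 and 285 CPM in naive day 28 hearts. The log2 difference was 0.9 (SE 0.26, 1.87-fold), and 0.29 without MI replicate 2, 1.37 without MI replicate 1 and 0.24 without the second set. Both MI libraries were above the naive ones, the first by little. On day 7, CTSB had 335, 243 and 242 CPM in MI hearts and 323, 312 and 329 CPM in naive hearts. On day 14 it had 265, 352 and 235 CPM in MI hearts and 235, 307 and 314 CPM in naive hearts. The groups overlapped on both days, and MI day 28 replicate 1 lay within the range of these earlier MI libraries.

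Cathepsin Z (ENSSSCG00000007522) is a carboxypeptidase. CTSZ had 65.2 and 194 CPM in the MI day 28 libraries, against 92.9, 90.5 and 63.9 CPM in naive day 28 hearts. Only MI replicate 2 lay above the naive range, and the log2 difference of 0.65 (SE 0.34, 1.57-fold) turned to -0.31 without it and to -0.26 without the second set, and was 1.26 without MI replicate 1. MI hearts had 79.2, 68.7 and 69.2 CPM on day 7 and 59.7, 82.2 and 57.5 CPM on day 14, against 132, 74.5 and 83.5 CPM in naive hearts on day 7 and 79, 90.8 and 73.8 CPM on day 14. The groups overlapped on both days.

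CTSA, CTSC and CTSD lay close to each other in the MI and naive groups of day 28. Cathepsin A (ENSSSCG00000007431) protects the lysosomal sialidase NEU1 and beta-galactosidase GLB1 in a complex. CTSA had 42.6 and 65.5 CPM in MI day 28 hearts, against 49.2, 63.3 and 46.5 CPM in naive day 28 hearts, a log2 difference of 0.03 (SE 0.3). Cathepsin C (ENSSSCG00000014924) is the dipeptidyl peptidase that activates the granule serine proteases of neutrophils and lymphocytes. CTSC had 367 and 514 CPM in MI day 28 hearts, against 428, 529 and 342 CPM in naive day 28 hearts, a log2 difference of 0.03 (SE 0.28). Cathepsin D (ENSSSCG00000040793) is the main aspartic endopeptidase of the lysosome. CTSD had 260 and 354 CPM in MI day 28 hearts, against 287, 344 and 269 CPM in naive day 28 hearts, a log2 difference of 0.04 (SE 0.27). The groups overlapped for all 3 genes, and without MI replicate 2 the log2 differences were -0.29 for CTSA, -0.21 for CTSC and -0.18 for CTSD. Without MI replicate 1 they were 0.33 for CTSA, 0.27 for CTSC and 0.27 for CTSD, and without the second set -0.16, -0.05 and -0.08 in the same order of genes.

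The members that were picked for day 28 thus differ in how far they rest on a single pig. The 8 log2 differences had a median of 0.78, against 0 over all 15359 tested genes. Their median was -0.15 without MI replicate 2, 1.31 without MI replicate 1 and -0.02 without the second set. Both MI libraries lay above all naive libraries for CTSB, CTSH and CTSL, 3 of 8 members, and for 2521 of the tested genes (16.4%). Nothing is read from that count, since the comparison chose the members. Among all tested genes, the day 28 differences of CTSL, CTSH and CTSS lay at percentiles 98.5, 96 and 93, those of CTSB and CTSZ at 82 and 77, and those of CTSD, CTSA and CTSC between 51.2 and 51.8.

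**Figure D2:**
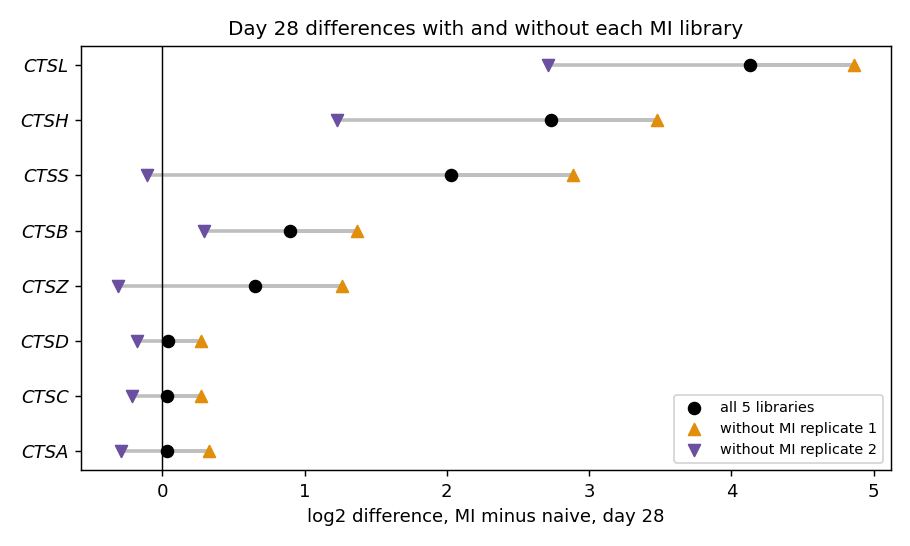
Fitted log2 difference, MI minus naive, on day 28 for the 8 cathepsins, from all 5 libraries (circles), without MI replicate 1 (upward triangles) and without MI replicate 2 (downward triangles). Without replicate 2, CTSL (2.71), CTSH (1.23) and CTSB (0.29) stay above 0, while the other 5 lie between -0.31 and -0.11.

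Of the cathepsins outside the list, 4 had a row (CTSF, CTSO, CTSV and CTSW). On day 28 CTSF and CTSV followed the other MI pig. CTSF had 242 and 111 CPM in MI day 28 hearts, against 82.9, 90.1 and 26.8 CPM in naive day 28 hearts. CTSV had 248 and 113 CPM in MI day 28 hearts, against 94, 76.1 and 67 CPM in naive day 28 hearts. For both, MI replicate 1 was the highest of all 21 libraries and both MI libraries exceeded the naive ones. Set against the naive day 28 mean, MI replicate 1 was at 3.63 for CTSF and 3.14 for CTSV and replicate 2 at 1.67 and 1.43. For the members, the corresponding ratios ran from 0.79 (CTSZ) to 6.51 (CTSL) in replicate 1 and from 1.18 (CTSD) to 29 (CTSL) in replicate 2, and each of the 8 was higher in replicate 2. CTSO had 2.64 and 10.1 CPM and CTSW 4.24 and 9.34 CPM in the MI day 28 libraries, against 4.16, 2.67 and 4.5 CPM and 4.06, 4.69 and 2.23 CPM in naive day 28 hearts.

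**Figure D3:**
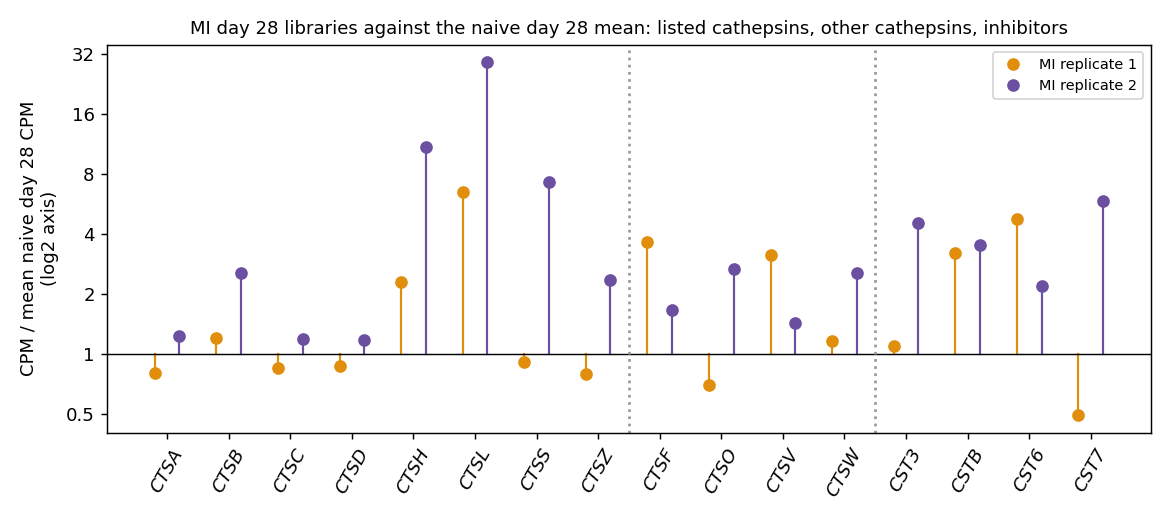
CPM in each MI day 28 library divided by the naive day 28 mean (log2 axis, lines drawn from 1) for the 8 members, 4 other cathepsins and 4 inhibitors, separated by dotted lines. Replicate 2 exceeds replicate 1 for every member, while CTSF, CTSV and CST6 are higher in replicate 1 (3.63, 3.14 and 4.76) than in replicate 2 (1.67, 1.43 and 2.19).

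The comparisons that could be tested used the libraries of days 1 to 14, with edgeR's quasi-likelihood test on all genes and an adjusted p under 0.05 as the threshold. None of the 8 cathepsins was called by edgeR in any of 8 comparisons. DESeq2 called 0 of them as well. The share of all tested genes called by edgeR was 0% in each comparison except the change of the MI difference between days 7 and 14, where it was 0.00651% (1 gene, without a symbol). At an unadjusted p under 0.05 the count over the 8 comparisons was 1, CTSD in the average of days 7 and 14. DESeq2 called 263 of all genes on day 7, 14 on day 14 and 163 in the average of the 2 days.

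MI hearts on day 7 lay slightly below naive hearts for 7 of the 8 members. The median log2 difference was -0.36, against 0.03 over all tested genes, and the values ran from -0.49 to 0.33. CTSD had 266, 233 and 243 CPM in MI day 7 hearts, against 481, 248 and 313 CPM in naive day 7 hearts, with a log2 difference of -0.49 (SE 0.24, edgeR adjusted p = 0.424). The groups overlapped, and naive replicate 1 was the highest CTSD library of the series. CTSH was the only member whose groups did not overlap, with MI below naive (-0.48, SE 0.52, edgeR adjusted p = 0.749). Of all tested genes, 10.4% lay below and 13.9% above without overlap on day 7. CTSZ differed by -0.42 (SE 0.31, edgeR adjusted p = 0.616) and CTSS by -0.47 (SE 0.51, edgeR adjusted p = 0.752). CTSA had 35.8, 53.6 and 48.4 CPM in MI day 7 hearts, against 61.5, 41.4 and 66.1 CPM in naive day 7 hearts, and CTSC had 318, 340 and 405 CPM, against 342, 445 and 440 CPM. Neither passed the test, with log2 differences of -0.29 (SE 0.27) and -0.21 (SE 0.25).

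On day 14 the median log2 difference was -0.1, against -0.01 over all tested genes, and 3 of the 8 values were positive. The largest were those of CTSL, 1.5 (SE 0.8, edgeR adjusted p = 0.993), and CTSH, 0.92 (SE 0.52, edgeR adjusted p = 0.999). Without MI day 14 replicate 2 the CTSH value was -0.15. CTSD had 275, 268 and 170 CPM in MI day 14 hearts, against 238, 335 and 343 CPM in naive day 14 hearts (-0.36, SE 0.24, edgeR adjusted p = 0.999). CTSA had 52.8, 44.3 and 39 CPM in MI day 14 hearts, against 37.3, 54.6 and 63.5 CPM in naive day 14 hearts, and CTSC 310, 315 and 268 CPM, against 218, 408 and 470 CPM. The groups overlapped for all 8 members, whereas every MI library lay above every naive one for 3.73% and below for 4.49% of all tested genes. Averaged over days 7 and 14, CTSD differed by -0.42 (SE 0.17), with an unadjusted edgeR p of 0.0237 and an adjusted p of 0.407. Of all tested genes, 10.4% had an unadjusted p under 0.05 in that comparison.

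The MI difference of CTSH was larger on day 14 than on day 7 by 1.41 on the log2 scale (SE 0.73, edgeR adjusted p = 0.742), and MI day 14 lay above MI day 7 by 1.09 (SE 0.52, edgeR adjusted p = 1). Neither passed the test, and the day 14 value rests on replicate 2, as given above. In MI hearts over days 7, 14 and 28 the mean CTSH level was 31.9 ± 6.26 CPM (SD, n = 3), 67.8 ± 61.7 CPM (n = 3) and 171 ± 157 CPM (n = 2), with the spread in each later group nearly as large as the mean.

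In naive hearts no member passed the test between ages. Day 3 against day 1, CTSH differed by -0.93 (SE 0.64), CTSS by -0.94 (SE 0.63) and CTSL by -1.13 (SE 0.96), each with an edgeR adjusted p of 0.965. Day 7 against day 1, the 8 log2 differences lay between -0.28 and 0.31. Day 14 against day 7, all 8 were negative, from -1.46 for CTSL (SE 0.81, edgeR adjusted p = 0.643) to -0.12 for CTSA. CTSD averaged 281 ± 4.75 CPM on day 1 (n = 2), 312 ± 24.8 on day 3 (n = 2) and 347 ± 120 on day 7 (n = 3). It averaged 305 ± 58.6 CPM on day 14 (n = 3) and 300 ± 39.2 on day 28 (n = 3). Neighbouring ages lay closer than their spread except days 1 and 3, which had 2 libraries each and did not pass the test. CTSC had 329 and 441 CPM on day 1 and 410 and 366 CPM on day 3, and CTSA had 78.4 and 40.5 CPM on day 1 and 47 and 51.4 CPM on day 3. For both, the pair of day 1 libraries spanned the pair of day 3.

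Macrophage markers moved with the variable members. The 15 listed markers, among them CD68, CSF1R and C1QA, summed to 406 and 4100 CPM in MI day 28 hearts, against 435, 442 and 90.7 CPM in naive day 28 hearts, and none was at 0 in any library. The sum was 304 to 567 CPM in MI and 533 to 550 CPM in naive hearts on day 7, 207 to 727 CPM in MI and 422 to 509 CPM in naive hearts on day 14, 466 and 635 CPM in naive hearts on day 1 and 302 and 410 CPM on day 3. MI day 28 replicate 2 and MI day 14 replicate 2, high for CTSH and CTSS, had the highest sums of the series, and naive day 28 replicate 3, lowest for CTSH, CTSL and CTSS, had the lowest. CD68, a lysosomal membrane protein of macrophages, had 7.36 and 98.3 CPM in MI day 28 hearts, against 6.27, 8.29 and 1.76 CPM in naive day 28 hearts. In MI day 28 replicate 1, where the marker sum lay inside the naive range, CTSH and CTSL still exceeded all naive day 28 libraries and CTSS did not. The part of macrophages in these values was not tested. In bulk tissue, more cells of a type and more RNA per cell cannot be told apart.

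**Figure D4:**
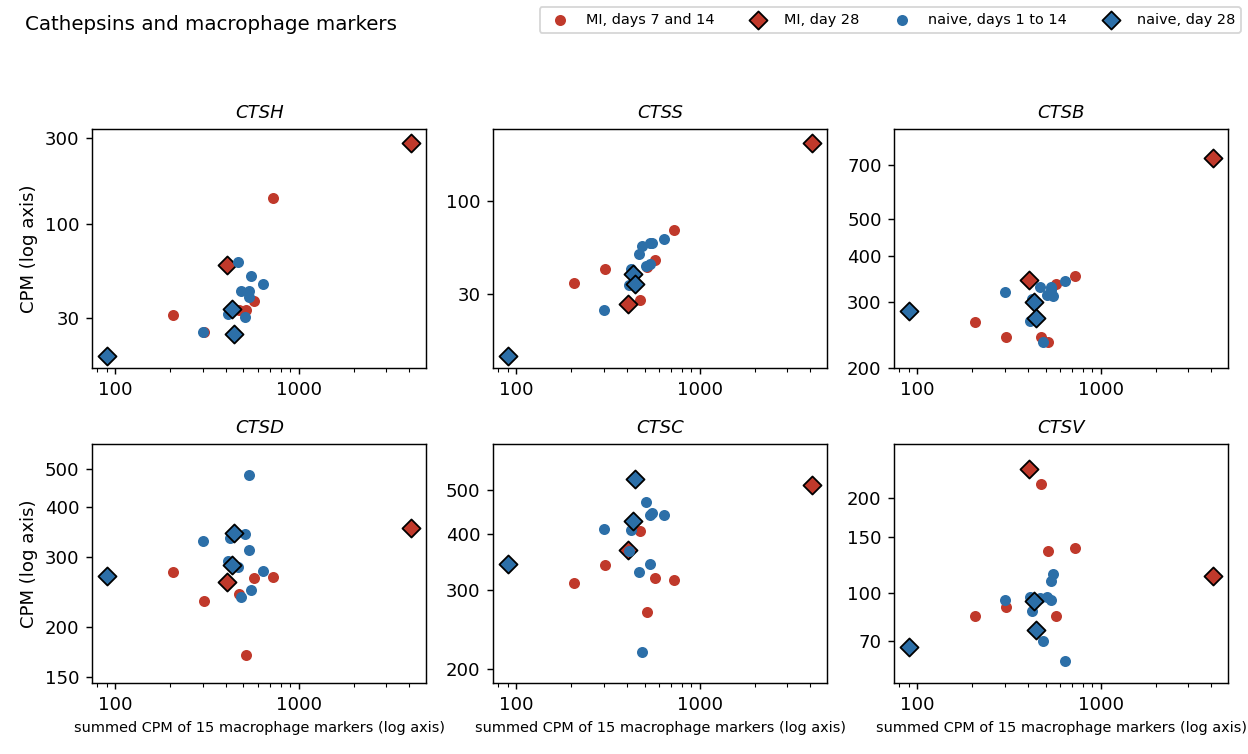
CPM of CTSH, CTSS, CTSB, CTSD, CTSC and CTSV (log axes) against the summed CPM of 15 macrophage markers, with 1 point per library and diamonds for day 28. MI day 28 replicate 2, at a marker sum of 4100 CPM, is the highest library for CTSH, CTSS and CTSB, but for CTSV it has 113 CPM and MI replicate 1, at a sum of 406 CPM, has 248 CPM.

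Summed markers of other cells differed between the MI day 28 libraries, and some sums stayed inside the naive day 28 range. Fibroblast markers (10 genes, led by collagens) summed to 1930 and 20400 CPM in MI day 28 hearts, against 3860 to 6630 CPM in naive day 28 hearts, and to 6090, 17000 and 6600 CPM in MI day 14 hearts, where replicate 2 was the highest of its group. Lymphocyte markers summed to 13.1 and 120 CPM and neutrophil markers to 5.56 and 39.9 CPM in the MI day 28 libraries, against 4.94 to 26.7 CPM and 0.88 to 1 CPM in naive day 28 hearts. Cardiomyocyte markers summed to 46700 and 38300 CPM in MI day 28 hearts, against 75200 to 87700 CPM in naive day 28 hearts. MI day 28 replicate 1, the library in which CTSF and CTSV were highest, stood apart in some smooth muscle and adipocyte genes. It had 549 CPM of ACTA2, 303 CPM of MYH11 and 55.8 CPM of LMOD1, against at most 282, 134 and 9.66 CPM in any other library. The smooth muscle markers CNN1 (119 CPM) and TAGLN (1.86 CPM) were not highest there, with up to 292 and 1.95 CPM in other libraries. The fat hormone gene ADIPOQ had 116 CPM in MI day 28 replicate 1 and at most 3.08 CPM elsewhere, and CIDEA, a lipid droplet protein, 27 CPM and at most 1.65 CPM. The adipocyte markers CIDEC, PLIN1 and LEP were also highest there, while PLIN4 had 82.7 CPM there and up to 194 CPM in other libraries. The 6 smooth muscle markers together summed to 5350 and 3660 CPM in MI day 28 hearts, against 4690, 5750 and 12200 CPM in naive day 28 hearts. Most of each sum was DES, which heart muscle also makes. DES had 4320 and 3390 CPM in MI and 4480, 5540 and 11700 CPM in naive day 28 hearts, so these sums say little about smooth muscle. The 6 adipocyte markers summed to 236 and 49.1 CPM in MI day 28 hearts, against 80.3, 181 and 69.2 CPM in naive day 28 hearts. PLIN4 alone gave 82.7 and 46.9 CPM of the MI sums and 78.7, 179 and 67.8 CPM of the naive sums. Except in MI replicate 1, these sums were therefore nearly all PLIN4. Osteoclast-type markers, genes of the bone-resorbing cells in which cathepsin K is best known, summed to 35.9 and 24.7 CPM in the MI day 28 libraries, against 29.2, 32.4 and 10.7 CPM in naive day 28 hearts. Most of each sum was 1 gene, TNFRSF11A, with 33 and 19.6 CPM in MI and 25.9, 30.1 and 9.79 CPM in naive day 28 hearts. The part of all these cell types in the cathepsin values was not tested.

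The partners of the cathepsins were examined through lists of inhibitors, activating and delivery proteins, and the rest of the lysosome. No gene of these lists was called by edgeR in any of the 8 tested comparisons. Of 5 cystatins and related inhibitors, 4 were tested. CST3, encoding the secreted inhibitor cystatin C, had 206 and 853 CPM in MI day 28 hearts, against 261, 203 and 99.8 CPM in naive day 28 hearts, high in the same library as CTSS. CSTB, an intracellular inhibitor, had 81.9 and 89.7 CPM in MI day 28 hearts, against 27.8, 21.3 and 27.6 CPM in naive day 28 hearts. Here both MI libraries were alike and above every earlier library, and the log2 difference was 1.74 (SE 0.27), and 1.7 without MI replicate 2. For CST3 it was 1.5 (SE 0.53), and 0.16 without MI replicate 2. On day 7 CST3 had 223, 161 and 166 CPM in MI hearts, against 561, 292 and 411 CPM in naive hearts. All MI libraries were lower, yet the difference of -1.2 (SE 0.48) had an edgeR adjusted p of 0.332.

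LGMN, the asparaginyl endopeptidase that processes several cathepsins, had 107 and 338 CPM in MI day 28 hearts, against 92.5, 78.7 and 83.6 CPM in naive day 28 hearts, a log2 difference of 1.39 (SE 0.32) that was 0.36 without MI replicate 2. CD74, the invariant chain cut by cathepsin S, had 310 and 847 CPM in MI day 28 hearts, against 333, 299 and 88.9 CPM in naive day 28 hearts. Both were highest, among these 5 libraries, in MI replicate 2. LAMP1, a structural protein of the lysosomal membrane, had 158 and 228 CPM, against 148, 148 and 147 CPM, a log2 difference of 0.38 (SE 0.16) that was 0.12 without MI replicate 2. TFEB, a transcription factor that activates lysosomal genes, had 53.1 and 37.9 CPM in MI day 28 hearts, against 34.3, 44.7 and 46 CPM in naive day 28 hearts. The TFEB groups overlapped on day 28. On day 7 TFEB had 44.3, 37.8 and 59.3 CPM in MI hearts, against 33.5, 26.2 and 27.8 CPM in naive hearts, without overlap (0.69, SE 0.21, edgeR adjusted p = 0.203).

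Other lysosomal hydrolases and cofactors also lay higher in MI day 28 hearts through replicate 2. Of 33 listed, 31 were tested, their median log2 difference on day 28 was 0.78, and 27 of 31 values were positive, against 50.4% of all tested genes. Without MI replicate 2 the median was -0.02, with 15 of 31 positive. They ranged from -1.35 for SMPD1, the acid sphingomyelinase, to 1.78 for LIPA, the acid lipase, with all libraries, and LIPA was at -0.1 without MI replicate 2. Their summed level was 1540 and 3080 CPM in MI day 28 hearts, against 1730, 1660 and 1380 CPM in naive day 28 hearts, so MI replicate 1 lay within the naive range. The 14 tested subunits and accessory proteins of the lysosomal proton pump had a median of -0.16, with 4 of 14 positive, and 10 membrane proteins of the lysosome a median of 0.22, with 7 of 10 positive. Without MI replicate 2 these medians were -0.28 and 0.11. On day 7 the medians were -0.16 for the hydrolases (5 of 31 positive), -0.31 for the pump (0 of 14) and -0.2 for the membrane proteins (2 of 10), against 0.03 over all tested genes.

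Likeness between genes was measured as the root mean square difference of centred log2 CPM over the 21 libraries. The genes closest to CTSH were FCER1G (0.3), a signalling chain of Fc receptors, and RARRES2 (0.31), the precursor of the chemoattractant chemerin, against an SD of 0.85 for CTSH itself. CTSS lay closest to INPP5D (0.24), a lipid phosphatase of blood cells, and SLC15A3 (0.24), a lysosomal peptide transporter, with an SD of 0.73. CTSL lay closest to CFP (0.73), which encodes the complement protein properdin, and GPNMB (0.77), with an SD of 1.38. CTSB lay closest to TNFRSF1A (0.18), a receptor of tumour necrosis factor, and PEPD (0.18), a dipeptidase, and CTSZ to MAN2B1 (0.22), a lysosomal mannosidase, and FCGRT (0.22), the neonatal Fc receptor. CTSA lay closest to TPP1 (0.18), a lysosomal tripeptidyl peptidase, and WDR25 (0.22), CTSC to SMAD3 (0.22), and CTSD to TBC1D5 (0.21) and KIAA2013 (0.22). Within the family CTSH and CTSS were each other's nearest member (0.48), as were CTSA and CTSD (0.26) and CTSB and CTSZ (0.28). CTSL was nearest to CTSH (0.87) and CTSC to CTSD (0.29). The SDs of the flat members were 0.3 for CTSA, 0.33 for CTSB, 0.3 for CTSC, 0.29 for CTSD and 0.39 for CTSZ. The distances of 0.26 to 0.29 between them were nearly as large as most of these SDs, so little likeness is read from them. These distances include the day 28 libraries that chose the members and share each library's depth and tissue makeup.

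The 250 bases before each gene start were searched on both strands for CACGTG, the E-box core bound by TFEB and its relatives, and for GAGGAA, a core bound by the myeloid factor PU.1. CACGTG was present before 1 of the 9 genes, CTSA, 16 bases from its start, and in 6.16% of 20664 such windows of the genome. GAGGAA was present before CTSA and CTSK, 2 of 9, and in 22% of all windows. Neither motif was in the window of CTSB, CTSC, CTSD, CTSH, CTSL, CTSS or CTSZ.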

How the data were processed

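The authors deposited whole-number read counts, not normalized, for each Ensembl gene and library. The submitters' processing notes name Trim Galore, STAR 2.5.2, HTSeq 0.6.1 and DESeq2, with Sscrofa11.1 as genome build. Annotation release and strand setting were not given in the sources used here, so reads of overlapping genes cannot be told apart. From these counts, edgeR 4.0.16 (R 4.3.3) kept 15359 of 25880 genes with filterByExpr. It scaled libraries by trimmed mean of M values and fitted 1 mean per group to all libraries (robust quasi-likelihood fit, 13 residual degrees of freedom, biological coefficient of variation 0.373). The 8 tested comparisons used F-tests, two-sided, with Benjamini-Hochberg adjustment over all tested genes. Fold changes and SE come from this fit, and CPM from its scaled library sizes. P-values measure the spread between pigs. The fit was tested on simulated counts.

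The members, gene lists and tests were chosen with earlier results of these data known. All members are named. LGMN, CST3, CSTB, CD74, CD68, LAMP1 and TFEB are named for their role, and likeness names the 2 nearest genes, of which 1 is not reported here. CTSF, CTSV, CTSO, CTSW, CST6, ACTA2, MYH11, LMOD1, DES, ADIPOQ, CIDEA, SMPD1, LIPA, TNNI3, CSF1R and C1QA were named after their values were seen. So were CNN1, TAGLN, CIDEC, PLIN1, PLIN4, LEP and TNFRSF11A. Alternatives were DESeq2 1.42.0 and its size factors, no filter, fits to the compared groups alone, without day 28 or the second library set, that set as a term, and leaving out each library. Day 28 values of partner genes and lysosomal lists without MI day 28 libraries, and the same for CTSH between days, were added after seeing the data. Coding sequences and positions come from the RefSeq annotation of Sscrofa11.1 (release 106). Figures used matplotlib 3.10.9.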

Additional observations from a re-analysis of the deposited data

Results flagged for a closer look

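CTSH lay in opposite order on 2 days. On day 7 the MI libraries had 37.3, 25.1 and 33.3 CPM, all below the 39.4, 51.8 and 42.4 CPM of naive hearts. On day 28 they had 59.3 and 282 CPM, both above the 33.8, 24.6 and 18.6 CPM of naive hearts. The fitted MI differences were -0.48 on day 7 and 2.73 on day 28, which are 3.21 apart on the log2 scale. Without MI day 28 replicate 2 they were 1.74 apart. Of all tested genes, 10.4% lay below without overlap on day 7 and 16.4% lay above without overlap on day 28. The share of genes with both orders was not counted. The difference of CTSH between the days was not tested, since the day 28 comparison chose the gene.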

How the results depend on the processing

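No member was called by edgeR or DESeq2 in any of the 8 tested comparisons under the 7 other settings or in the 21 fits that left out 1 library, where at most 1 gene of the whole table was called. Over all genes DESeq2 called 3 to 263 per comparison, where edgeR called 0 or 1 and at most 2 under its other settings. For CTSB on day 14 the log2 difference was 0.03 with DESeq2's size factors and with DESeq2, 0.02 without the filter and without the day 28 libraries, 0.05 with the second set as a term, 0.09 without that set and -0.19 to 0.11 when 1 library was left out, against -0.01. For CTSA on day 14 it was 0 without the second set. When 1 library was left out, CTSH on day 14 lay at -0.15 to 1.27 (lowest without MI day 14 replicate 2), CTSS on day 14 at -0.28 to 0.25 and CTSL on day 7 at -0.33 to 0.91. The day 28 median was -0.02 without the second set, where CTSZ was -0.26, and ran from -0.15 to 1.31 when 1 library was left out. The matching ranges were -0.11 to 2.89 for CTSS and -0.31 to 1.26 for CTSZ. No paired analysis was possible because the labels give no replicate numbers that groups share. With 2 MI pigs on day 28, 10 to 933 counts of CTSL per library and reads that CTSV may share, the size of its difference is poorly fixed. The cause of these shifts was not tested.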
